A study of Mus musculus with 48 samples.

Results

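The comparison described here asks what lead adds to manganese in daughters. It sets the hippocampus of 6 female mice whose dams drank lead plus manganese (Pb+Mn) against that of 6 females whose dams drank manganese alone (Mn), 12 of the 48 RNA sequencing libraries in the study, chosen by the sex and treatment in their labels. The mice were of the outbred CD-1 stock and were 2 months old. Pb+Mn dams received lead at 100 ppm and manganese at 2 g/L in the drinking water, and Mn dams received the same manganese with no lead, over 8 weeks that began 2 weeks ahead of mating and ended when pups were weaned at day 21 of age. All 12 daughters therefore came from manganese-exposed dams and had been off the metals since weaning, and neither group stands for unexposed animals. Daughters of dams on lead alone (Pb) and on plain water (control), and sons exposed to Pb+Mn and to Mn, 6 animals each, are given beside this comparison where they bear on it. Offspring were exposed through their dams, and the labels do not say which animals were littermates, so every p-value below reflects variation among animals, which may be smaller than variation among litters.

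Manganese and iron share carriers into and within the brain, among them the divalent metal transporter DMT1, the ZIP14 and ZIP8 importers and transferrin, while the ZnT10 exporter removes manganese from cells. Lead has no dedicated carrier. It takes the places of calcium and zinc in proteins, blocks the heme enzyme aminolevulinate dehydratase and interferes with NMDA-type glutamate receptors, which the hippocampus needs for synaptic plasticity and memory. Oligodendrocytes, the glia that wrap axons in myelin, mature late in the developing brain and are rich in iron.

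Total counts per library ranged from 12.5 to 20.8 M reads in Pb+Mn daughters and from 11.6 to 21.5 M reads in Mn daughters. The share of counts in the 50 most abundant genes, the share from mitochondrially encoded genes, the total and the trend of expression on transcript length were compared between the groups by exact permutation over animals (two-sided, 924 arrangements, smallest possible p 0.00216). Adjusted over these 4 tests, the p-values were 0.645, 0.645, 0.771 and 0.684. Xist, the RNA that silences an X chromosome in females, ranged from 29.8 to 268 CPM (counts per M reads) in Pb+Mn and from 48.6 to 223 CPM in Mn daughters, and the Y-linked helicase gene Ddx3y did not exceed 0.0714 CPM. Of 9 sex-linked genes that passed the filter on low counts, 6 had higher and 2 lower estimates in Pb+Mn, with a median of 0.08; these include Y-linked genes at or near 0, of which Uty was at 0 in all 12 daughters. Hippocampal markers were present in every library, among them Prox1 of dentate granule cells at 116 to 129 CPM in Pb+Mn and 77.2 to 185 CPM in Mn daughters.

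No gene differed between Pb+Mn and Mn daughters after adjustment over all genes. Of 16360 genes tested, 0 (0%) had an adjusted p under 0.05 in edgeR's quasi-likelihood test, and the smallest adjusted p was 1. Without adjustment 390 genes had a p under 0.05, 264 with higher values in Pb+Mn (1.61% of all tested) and 126 with lower values (0.77%), where 818 (5%) would be expected with no difference at all. DESeq2 gave 0 adjusted and 408 unadjusted, and limma voom 0 and 366. Log2 fold changes, Pb+Mn over Mn, were above 0 for 49.5% of genes and below 0 for 50.5%. The median standard error (SE) of a log2 fold change was 0.16 and the 95% interval reached a median of 0.32 to either side of the estimate. Of 14381 genes whose log2 CPM averaged 0 or more (about 1 CPM), 94.3% had an interval that lay within 1 log2 unit of 0. An estimate beyond 0.5 in either direction was seen for 973 genes (5.95%). The genes named below are therefore described by their values, and none of them passed the adjusted test. Those of smallest p were picked on these same animals, so counts of animals above or below the Mn mean give them no separate support.

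The gene with the smallest p was Cdk18, which encodes a cyclin-dependent kinase. It ranged from 19.5 to 28 CPM in Pb+Mn daughters with a median of 25.5, and from 12.4 to 22.3 CPM in Mn daughters with a median of 15.5. The groups overlapped, with the lowest Pb+Mn animal below the highest Mn animals, although all 6 Pb+Mn animals lay above the Mn mean. The log2 fold change was 0.58 ± 0.16 (SE, 95% interval 0.26 to 0.90), which is 1.49-fold, with an unadjusted p of 0.000753 and an adjusted p of 1 in edgeR. Control daughters lay between 18.3 and 22.4 CPM. The difference was 0.42 without Mn animals 1 and 5.

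Alas2, the heme-synthesis enzyme of developing red blood cells, was the gene of next smallest p among the named ones. Its level ran from 1.58 to 9.70 CPM in Pb+Mn daughters (median 5.56) and from 1.09 to 3.44 CPM in Mn daughters (median 2.02). Of the Pb+Mn animals, 5 lay above every Mn animal and animal 3, at 1.58 CPM, lay among them. The log2 fold change was 1.30 ± 0.38 (edgeR unadjusted p = 0.00129), or 2.47-fold, and it ran from 1.03 to 1.49 when single animals were left out. Globin transcripts moved with it and are given below.

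Scarb2, a lysosomal membrane protein that carries glucocerebrosidase to lysosomes, ranged from 164 to 202 CPM in Pb+Mn and from 139 to 173 CPM in Mn daughters (log2 fold change 0.25 ± 0.07). Ybx3, a Y-box protein that binds nucleic acids, ranged from 25.7 to 28.5 CPM in Pb+Mn and from 19.4 to 23.6 CPM in Mn daughters (0.29 ± 0.09), so that its groups did not overlap. Ube2l6, the conjugating enzyme for the interferon-induced modifier ISG15, ranged from 3.58 to 6.42 CPM in Pb+Mn and from 2.29 to 3.94 CPM in Mn daughters (0.63 ± 0.19). For Scarb2 and Ube2l6 the groups overlapped at their edges, with all 6 Pb+Mn animals above the Mn mean. The rest of the 12 genes with higher values were Frmd8, which binds the iRhom proteins (0.49 ± 0.15), the very-long-chain fatty acid elongase gene Elovl1 (0.41 ± 0.13), the semaphorin receptor gene Plxnb3 (0.48 ± 0.16), the potassium channel gene Kcna6 (0.32 ± 0.11), Ttyh2 of the tweety family (0.46 ± 0.15), the selenoprotein synthesis factor gene Secisbp2 (0.28 ± 0.09) and the O-glycosylation enzyme gene Galnt6 (0.58 ± 0.19). Their unadjusted p-values lay between 0.00224 and 0.00412 in edgeR. In each of these 7 genes all 6 Pb+Mn animals lay above the Mn mean. Without Mn animals 1 and 5, the log2 fold change was 0.23 for Plxnb3, 0.26 for Ttyh2, 0.37 for Galnt6 and 0.22 for Kcna6, and the unadjusted p of each was above 0.05 (0.121, 0.106, 0.0725 and 0.0666).

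**Figure D1:**
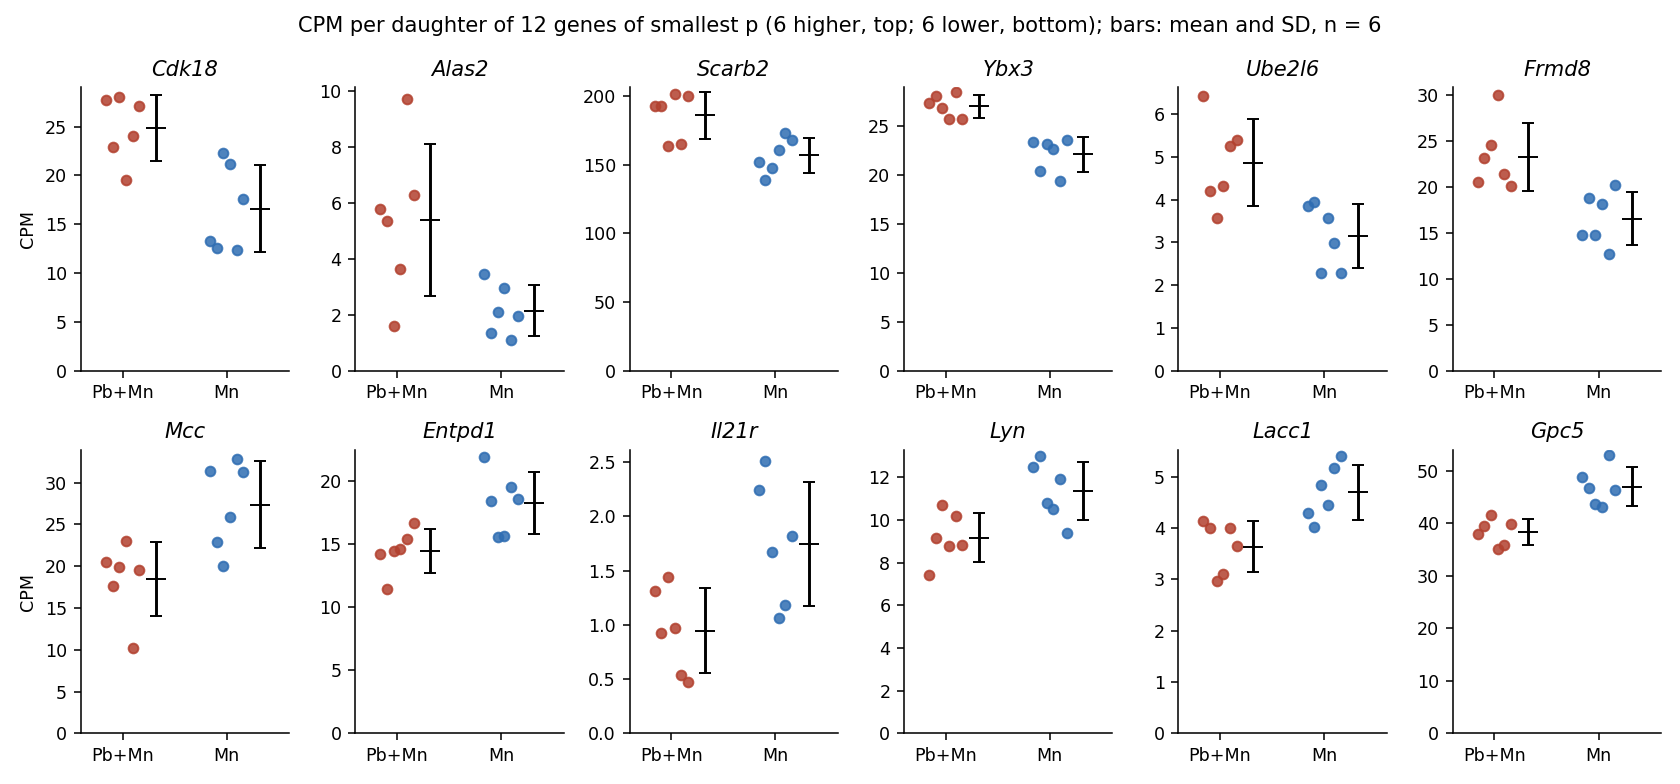
CPM (vertical axis, from 0) of 12 genes in each of the 6 Pb+Mn daughters (red, left) and 6 Mn daughters (blue, right), with the mean and SD beside the points; the top row holds the 6 genes of smallest p with higher values in Pb+Mn, the bottom row those with lower values. The groups do not overlap for Ybx3 and Gpc5, and in Alas2 5 of 6 Pb+Mn animals lie above the highest Mn animal.

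Among genes with lower values in Pb+Mn daughters, the smallest p was that of Mcc, named for its mutation in colorectal cancers. It ranged from 10.2 to 23.0 CPM in Pb+Mn (median 19.8) and reached 32.8 CPM in Mn daughters (median 28.6). All 6 Pb+Mn animals lay below the Mn mean, and Mn animals 2 and 3 lay inside the Pb+Mn range. The log2 fold change was -0.57 ± 0.18 (edgeR unadjusted p = 0.00285). Entpd1, the cell-surface nucleotidase CD39, had 11.4 to 16.6 CPM in Pb+Mn against 15.5 to 21.9 CPM in Mn daughters (-0.34 ± 0.11). Lyn, a Src-family kinase of myeloid cells and B cells, had 7.41 to 10.7 CPM against 9.39 to 13.0 CPM in Mn daughters (-0.30 ± 0.11).

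Gpc5, a cell-surface heparan sulfate proteoglycan made by astrocytes, was the only one of these 12 genes whose groups did not overlap, with 35.2 to 41.5 CPM in Pb+Mn and 43.1 to 53.1 CPM in Mn daughters (-0.29 ± 0.11). Control daughters, at 31.7 to 45.2 CPM, spanned the Pb+Mn range. The store-operated calcium channel gene Orai2 had 161 to 271 CPM in Pb+Mn and 240.0 to 332 CPM in Mn daughters (-0.41 ± 0.16). The remaining genes of this set were the cytokine receptor gene Il21r (-0.88 ± 0.30, at most 2.51 CPM), Lacc1 (-0.37 ± 0.13), the adaptor genes Sla (-0.59 ± 0.22) and Samsn1 (-0.68 ± 0.26), the homeobox gene Hhex (-0.59 ± 0.23), Isoc2b (-0.50 ± 0.19) and the mitochondrial glutamine tRNA gene mt-Tq (-0.89 ± 0.34), a short transcript that poly(A) selection recovers poorly. All 6 Pb+Mn animals lay below the Mn mean in each of these but Samsn1, where 5 did. Without Mn animals 1 and 5, the log2 fold change was -0.24 for Gpc5, -0.25 for Entpd1, -0.33 for Orai2 and -0.51 for Samsn1. The unadjusted edgeR p of each was then above 0.05 (0.0566, 0.0538, 0.0704 and 0.0799), and that of the other genes of the 12 was below 0.05.

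With the animals arranged at random, complete separation in a given direction comes in 1 of 924 arrangements, a larger share than either seen here. Complete separation of the 6 Pb+Mn from the 6 Mn animals was seen for 14 genes with higher values (0.0856% of all tested) and 9 with lower values (0.055%). The largest differences among those with a gene name and a mean of at least 1 CPM were in Spink10, of a family of protease inhibitors (5.78 to 10.6 CPM in Pb+Mn, 2.43 to 4.87 CPM in Mn, log2 fold change 0.95 ± 0.34), the guanine nucleotide exchange factor gene Arhgef37 (2.29 to 3.61 and 0.67 to 1.95 CPM in Pb+Mn and Mn, 0.87 ± 0.34), the retinoic acid binding protein gene Crabp2 (0.84 ± 0.38) and the nonclassical MHC class I gene H2-T22 (2.79 to 5.09 and 2.05 to 2.46 CPM in Pb+Mn and Mn, 0.82 ± 0.33). In the other direction they were Gpc5, the ARF exchange factor gene Psd (-0.29 ± 0.15), the gluconate kinase gene Idnk (-0.29 ± 0.19) and the cytochrome oxidase subunit gene Cox6c (-0.27 ± 0.25). Control daughters were spread across the gap between the groups in most of these: Spink10 ran from 2.64 to 8.50 CPM and Arhgef37 from 1.32 to 5.71 CPM in controls. Reads of H2-T22 may be shared with other MHC class I genes, and its value is uncertain to that extent.

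**Figure D2:**
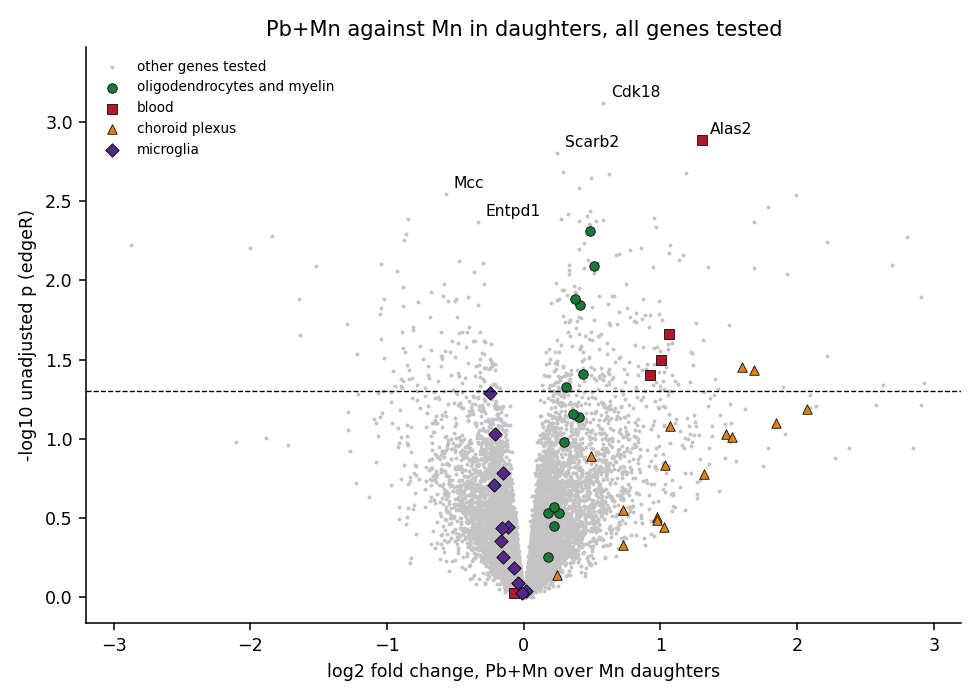
Each point is 1 of the 16360 genes tested, with the log2 fold change of Pb+Mn over Mn daughters on the horizontal axis and -log10 of the unadjusted edgeR p on the vertical axis (dashed line: p of 0.05; a few genes beyond 3.2 log2 units are not drawn). Myelin genes lie right of 0 at small differences, 4 of 5 blood genes and all 16 choroid plexus genes right of 0 at larger ones, and 11 of 12 microglia genes left of 0; no point passes the adjusted threshold.

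Genes of myelin and oligodendrocytes had higher estimates in Pb+Mn than in Mn daughters throughout. All 14 of 14 genes had a log2 fold change above 0, with a median of 0.33, where the median over all genes tested was 0.00 and 49.5% were above 0. An unadjusted p under 0.05 was found for 6 of them, in edgeR, and an adjusted p under 0.05 for 0. Of all genes tested, 1.61% had higher values at an unadjusted p under 0.05. Myrf, the transcription factor that switches on myelin genes, ranged from 72.5 to 104 CPM in Pb+Mn (median 81.7) and from 45.9 to 87.0 CPM in Mn daughters (median 55.4), a log2 fold change of 0.49 ± 0.16. All 6 Pb+Mn animals lay above 5 of the 6 Mn animals, and Mn animal 6 lay among them.

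Mag, an adhesion protein facing the axon, ranged from 151 to 215 CPM in Pb+Mn and from 84.3 to 205 CPM in Mn daughters (0.41 ± 0.16). Cnp, the myelin phosphodiesterase, had 0.38 ± 0.15, the cytoskeletal gene Ermn 0.43 ± 0.20 and the tight junction gene Cldn11 0.31 ± 0.15. The abundant structural genes differed less relative to their error: Mbp, which compacts the myelin sheath, had 0.25 ± 0.24 and Mobp 0.18 ± 0.30, and their ranges in the groups overlapped widely (Mbp 3940 to 6880 CPM in Pb+Mn, 2320 to 5740 CPM in Mn).

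The spread behind these values sat in the Mn group. Averaged over the 14 genes as log2 CPM and centred on the 12 daughters, the level was 0.22, 0.12, 0.44, 0.37, 0.04 and -0.04 in Pb+Mn animals 1 to 6, and -0.80, -0.13, 0.13, 0.10, -0.75 and 0.30 in Mn animals 1 to 6. Mn animals 1 and 5 stood apart at the low end, and the other 4 Mn animals lay within or close to the Pb+Mn range. Control daughters lay between 0.07 and 0.38, among the Pb+Mn animals. Leaving out Mn animal 1 gave a median log2 fold change of 0.22 for the list, and leaving out Mn animal 5 gave 0.23. Without both animals, a setting chosen after the values were seen, the median was 0.09, with 10 of 14 genes higher, 4 lower and 0 at an unadjusted p under 0.05 in edgeR, and 290 genes in all had an unadjusted p under 0.05. The same animals 1 and 5 had the highest levels of dentate granule cell markers among the 12 daughters, 0.40 and 0.47 on the same centred log2 scale, against -0.36 to 0.11 in the other Mn and -0.12 to 0.04 in the Pb+Mn animals. In whole tissue, fewer cells of a type and less RNA per cell cannot be told apart, and the part of dissection in these values was not tested.

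**Figure D3:**
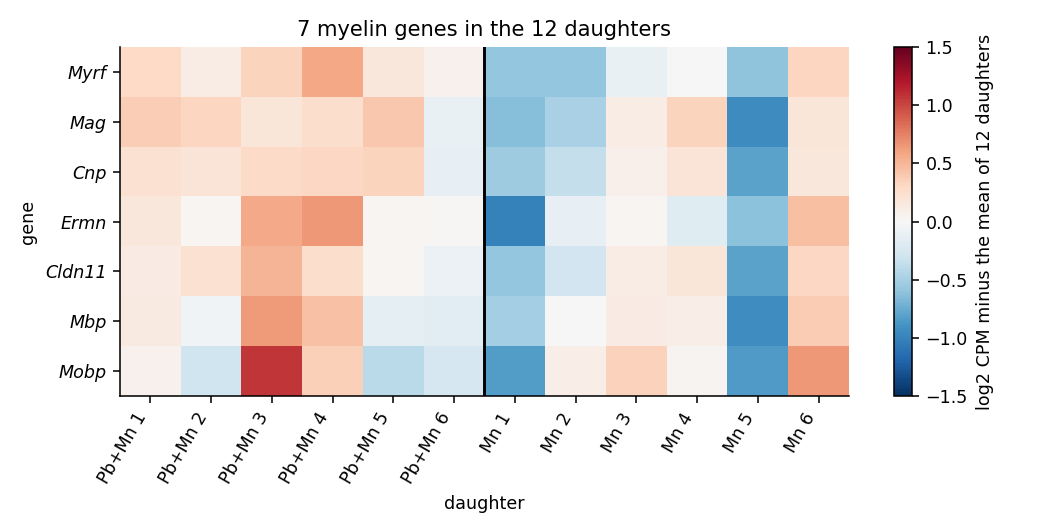
Log2 CPM of 7 myelin and oligodendrocyte genes (rows), those described in the text, in the 6 Pb+Mn daughters (left of the black line) and the 6 Mn daughters (right), each gene centred on its mean over the 12 animals (red higher, blue lower). The columns that are blue for every gene are Mn animals 1 and 5, at -0.80 and -0.75 on average over the whole list, while Mn animals 3, 4 and 6 are near or above 0.

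The list of oligodendrocyte precursor genes was near the background, with 6 of 10 higher and 4 lower estimates. Its median was 0.09, and 0.02 without Pb+Mn animal 4, 0.05 without Mn animal 1 and 0.05 without Mn animal 3. The lineage transcription factor gene Sox10 had 73.6 CPM in Pb+Mn animal 4 and 45.6 to 54.3 CPM in the other Pb+Mn animals, against 26.1 to 53.2 CPM in Mn daughters (0.44 ± 0.15). Olig2 had 34.5 to 53.4 CPM in Pb+Mn and 27.9 to 39.1 CPM in Mn daughters (0.35 ± 0.15). These are also expressed by mature oligodendrocytes. Without Mn animals 1 and 5 they stood at 0.26 and 0.28, each with an unadjusted p above 0.05 (0.112 and 0.119).

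Markers of tissue next to the hippocampus were higher in estimate in Pb+Mn daughters too, with a wide spread between animals. All 16 of 16 choroid plexus genes had a log2 fold change above 0 (median 1.05, 2 with an unadjusted p under 0.05). The share of all genes tested with higher values at such a p was 1.61%. Their summed level ran from 115 to 4790 CPM in Pb+Mn and from 77.9 to 1980 CPM in Mn daughters, so the groups overlapped over most of their ranges, and none of the markers was at 0 in every library. Pb+Mn animal 1 was the highest by far: Tmem72 had 82.6 CPM there against 0.852 to 15.5 CPM in the other Pb+Mn animals and 0.181 to 8.54 CPM in Mn animals, and Prlr, the prolactin receptor gene, had 79.9 CPM there. Without this animal the median of the list was 0.45, and Tmem72, Prlr and Slc4a5 stood at 0.77, 0.81 and 0.75. The 4 largest estimates among named genes with a mean of at least 1 CPM, whatever their p, were the choroid plexus genes Tmem72 (2.07 ± 1.09), Slc4a5, a bicarbonate carrier (1.84 ± 1.03), and Prlr (1.68 ± 0.78), and the habenula receptor gene Gpr151 (2.14 ± 1.12), which had 13.9 CPM in Pb+Mn animal 4 and 0.397 to 3.58 CPM in the other Pb+Mn animals, against 0.181 to 1.84 CPM in Mn animals. The 4 largest estimates in the other direction were those of the transporter-like gene Slc6a16 (-1.07 ± 0.53), the mitochondrial tRNA genes mt-Te (-0.89 ± 0.44) and mt-Tq, and the lipin gene Lpin3 (-0.88 ± 0.35), none above 5 CPM but for mt-Te in Mn animal 5 at 16.9 CPM. Without that animal mt-Te stood at -0.04, and without Pb+Mn animal 4 Gpr151 stood at 1.01.

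Thalamus and habenula markers had higher estimates in 14 of 14 genes (median 0.69), 0 of them at an unadjusted p under 0.05, with summed levels of 193 to 729 CPM in Pb+Mn and 204 to 599 CPM in Mn daughters. The median was 0.40 without Pb+Mn animal 5 and 1.08 without Mn animal 4. Meninges markers were higher in 13 of 14 genes (median 0.39), among them Igf2 (2.5 to 12.3 CPM in Pb+Mn, 1.09 to 4.61 CPM in Mn, log2 fold change 1.23 ± 0.54) and the sulfate carrier gene Slc13a4 (10.2 to 38.0 and 4.46 to 11.6 CPM in Pb+Mn and Mn, 1.04 ± 0.48). Pb+Mn animal 1 gave the top value of both, and without it Igf2 stood at 0.65 and Slc13a4 at 0.65. Without Mn animal 3 the meninges median was 0.23. How much of each neighbouring tissue each library held was not measured apart from these genes, and its part in other differences was not tested.

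Blood transcripts were higher in estimate as well. Of 7 listed genes, 5 passed the filter on low counts. Higher values at an unadjusted p under 0.05, seen in 1.61% of all genes tested, were found for 4 of these. They were Alas2 and the haemoglobin genes Hbb-bt (1.06 ± 0.45), Hba-a1 (1.00 ± 0.45) and Hbb-bs (0.92 ± 0.43). Without Pb+Mn animal 5, Hbb-bt stood at 0.63 and the median of the list, otherwise 1.00, at 0.70. Hbb-bs ranged from 70.4 to 262 CPM in Pb+Mn (median 176) and from 29.1 to 161 CPM in Mn daughters (median 64.0). The summed level of the list ran from 105 to 432 CPM in Pb+Mn and from 45.2 to 252 CPM in Mn daughters, with overlap. By animal, the centred log2 level was 0.62, 0.79, -0.57, -0.08, 1.16 and 0.75 in Pb+Mn animals 1 to 6 and 0.24, -1, -0.27, 0.28, -1.29 and -0.63 in Mn animals 1 to 6, so 4 of 6 Pb+Mn animals lay above every Mn animal. Control daughters ran from -0.43 to 1.45, a range that held 5 of the 6 Pb+Mn and 3 of the 6 Mn animals. The neutrophil gene S100a9 was near 0 in every library (at most 0.428 CPM in Pb+Mn and 0.558 CPM in Mn) and had an estimate of -0.07 ± 0.91. Hba-a2 was counted at no more than 0.131 CPM while Hba-a1 reached 131 CPM. These genes are near-identical copies, and so are Hbb-bs and Hbb-bt, so that the split of reads between copies is uncertain. Left-over blood in the tissue was not measured and its part in these values was not tested.

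**Figure D4:**
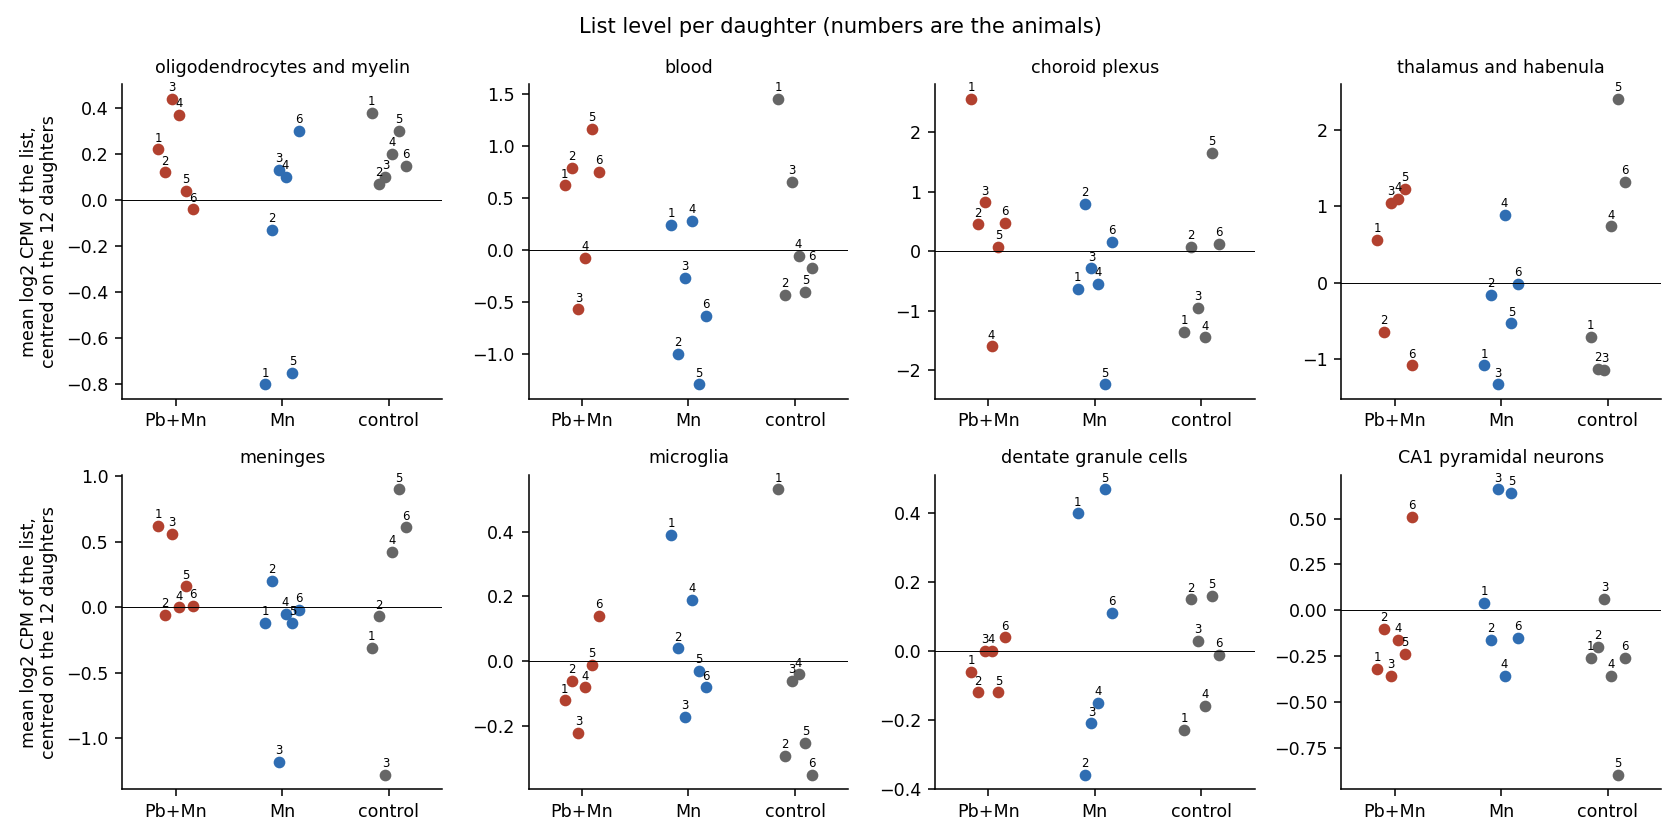
Mean log2 CPM of 8 marker lists, centred on the 12 Pb+Mn and Mn daughters (vertical axis), for each Pb+Mn daughter (red), Mn daughter (blue) and control daughter (grey), with animal numbers beside the points. Mn animals 1 and 5 are lowest for myelin and highest for dentate granule cells, Pb+Mn animal 1 is highest for choroid plexus at 2.56, and 4 Pb+Mn animals lie above all Mn animals for blood.

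Microglia, the resident immune cells of the brain, had lower estimates in 11 of 12 marker genes, with a median of -0.15 and 0 genes at an unadjusted p under 0.05. The lectin gene Siglech had 9.62 to 12.9 CPM in Pb+Mn and 9.92 to 17.8 CPM in Mn daughters (-0.25 ± 0.12, edgeR unadjusted p = 0.0514), and the purine receptor gene P2ry12, which guides microglial processes to injury, had 33.2 to 41.3 CPM in Pb+Mn and 40.3 to 55.0 CPM in Mn daughters (-0.21 ± 0.12). The complement gene C1qa, at 58.3 to 88.4 CPM in Pb+Mn and 53.9 to 85.8 CPM in Mn daughters, stood at 0.02 ± 0.17. The list's median was -0.08 without Mn animal 1, -0.08 without Pb+Mn animal 3 and -0.10 without Mn animal 4.

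Interferon-response and antigen-presentation genes had higher estimates in 17 of 19 tested genes, with a median of 0.17 (0.11 without Mn animal 3). Cd74, the invariant chain of MHC class II, ranged from 2.80 to 5.48 CPM in Pb+Mn and from 0.725 to 4.77 CPM in Mn daughters (log2 fold change 1.02 ± 0.46), where 5 of the 6 Mn animals lay below every Pb+Mn animal and Mn animal 2 lay among them. Oasl2, an interferon-induced antiviral gene, ranged from 1.93 to 4.72 CPM in Pb+Mn and from 1.78 to 2.54 CPM in Mn daughters (0.63 ± 0.30). These had an unadjusted p under 0.05 (0.0321 and 0.0452 in edgeR), and the other 17 did not. Over all genes tested, 1.61% had higher values at such a p. Gbp4, an interferon-induced GTPase gene named for its sex difference below, was at 20.3 CPM in Pb+Mn animal 6 and at 0.656 to 1.43 CPM in the other 5, against 0.321 to 2.60 CPM in Mn animals. Its estimate was 1.25 ± 0.69 with animal 6 and -0.70 without it.

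Ribosomal protein and mitochondrial genes had small estimates in 1 direction. All 30 of 30 cytosolic ribosomal protein genes had estimates below 0 (median -0.12, against 50.5% of all genes below 0), 0 of them at an unadjusted p under 0.05, and their summed level lay between 6830 and 7260 CPM in Pb+Mn and between 6150 and 8850 CPM in Mn daughters. The Pb+Mn animals thus lay inside the wider Mn range. The median of the list was -0.01 once each library's trend on transcript length was a covariate, -0.04 without Mn animal 2, -0.18 without Mn animal 5 and -0.18 without Mn animal 6. The 13 mitochondrially encoded protein genes were all below 0 (median -0.19), with the smallest p in mt-Nd4l (-0.76 ± 0.40, at most 1.72 CPM) and mt-Nd2 (-0.26 ± 0.21), and 21 of 24 nuclear respiratory chain genes were below 0 (median -0.10). The mitochondrial median was -0.11 without Mn animal 5, which had the highest mitochondrial share of the 12 libraries at 7.11%, and -0.12 without Pb+Mn animal 1, which had the lowest at 4.27%.

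Genes that move manganese and iron did not separate the groups. Of 18 tested, 10 had higher and 8 lower estimates (median 0.01). The manganese exporter gene Slc30a10 had 12.9 to 18.1 CPM in Pb+Mn and 13.8 to 20.5 CPM in Mn daughters, a log2 fold change of -0.09 with a 95% interval of -0.38 to 0.21. Slc39a14, the ZIP14 importer gene, had 38.2 to 43.0 CPM in Pb+Mn and 31.0 to 46.3 CPM in Mn daughters (interval -0.25 to 0.20), and Slc39a8, its ZIP8 relative, had 3.57 to 5.77 CPM in Pb+Mn and 4.13 to 5.70 CPM in Mn daughters (interval -0.29 to 0.31). Slc11a2, the DMT1 gene, was the most closely bounded of these, at -0.01 with an interval of -0.19 to 0.18. Each of these 4 intervals, taken singly and over animals rather than litters, ended within about 0.4 log2 units of 0. Changes that lie inside these intervals are not excluded, and intervals over litters may be wider.

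The member of this list with an unadjusted p under 0.05 was Trf, the transferrin gene, which in brain is made mainly by oligodendrocytes. It ranged from 223 to 299 CPM in Pb+Mn (median 287) and from 119 to 286 CPM in Mn daughters (median 210.0), a log2 fold change of 0.41 ± 0.18 (edgeR unadjusted p = 0.0268). Its lowest values were those of Mn animals 1 and 5, at 137 and 119 CPM, the animals lowest in myelin genes. Without these it stood at 0.15 with an unadjusted p of 0.4. Tfrc, the transferrin receptor gene, whose mRNA is stabilised when iron is low, had 73.6 to 112 CPM in Pb+Mn and 76.1 to 141 CPM in Mn daughters (-0.25 ± 0.20), and the iron exporter gene Slc40a1 had 9.77 to 12.6 CPM in Pb+Mn and 10.2 to 15.6 CPM in Mn daughters (-0.23 ± 0.13). The ferritin genes Fth1 (-0.10 ± 0.16) and Ftl1 (-0.10 ± 0.14) were close to 0.

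Metallothioneins, small proteins that bind zinc and other metals and are induced by them, had lower estimates and wide errors. Mt1 had 321 CPM in Pb+Mn animal 3 and 147 to 194 CPM in the other 5, against 189 to 283 CPM in Mn animals (-0.23 ± 0.22). Mt2 showed the same animal on top, at 49.5 CPM against 15.3 to 26.5 CPM in the other Pb+Mn animals and 19.8 to 38.1 CPM in Mn animals (-0.27 ± 0.29). For both genes 5 of 6 Pb+Mn animals lay below the Mn mean. Without animal 3 the estimates were -0.43 for Mt1 and -0.58 for Mt2, and Mt2 was at -0.17 without Pb+Mn animal 1. Mt3, the form enriched in brain, had 219 to 364 CPM in Pb+Mn and 264 to 371 CPM in Mn daughters (-0.25 ± 0.22). Of the 16 genes of metallothioneins and zinc handling, 4 had higher and 12 lower estimates, with a median of -0.03 and 0 at an unadjusted p under 0.05.

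Heme synthesis genes other than the erythroid Alas2 were near 0. Alad, which encodes the enzyme that lead blocks, had 18.1 to 32.2 CPM in Pb+Mn and 16.4 to 36.2 CPM in Mn daughters, a log2 fold change of 0.05 with an interval of -0.31 to 0.41. Alas1, the rate-limiting enzyme outside red cells, had 53.1 to 65.1 CPM in Pb+Mn and 55.3 to 61.7 CPM in Mn daughters, at 0.02 with an interval of -0.17 to 0.21. The heme oxygenase gene Hmox1, a stress-induced gene, was at -0.01 with an interval of -0.34 to 0.33. Over the 15 genes of heme synthesis and breakdown, 6 had higher and 9 lower estimates and the median was -0.01. None had an unadjusted p under 0.05. The antioxidant genes controlled by Nrf2 were similar, with 8 higher and 14 lower of 22 and a median of -0.02, and so was the unfolded protein response, with 5 higher and 13 lower of 18 and a median of -0.02.

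Receptor and synapse genes were likewise without a difference that passed any threshold used here. The NMDA receptor subunit gene Grin1 had 328 to 442 CPM in Pb+Mn and 285 to 437 CPM in Mn daughters (-0.02, interval -0.37 to 0.34). Grin2a had 215 to 262 CPM in Pb+Mn and 181 to 425 CPM in Mn daughters (-0.19, interval -0.68 to 0.30), and Grin2b had 368 to 494 CPM in Pb+Mn and 307 to 712 CPM in Mn daughters (-0.13, interval -0.64 to 0.38). In these subunits the Mn group was the more spread and enclosed the Pb+Mn group, except that the top Pb+Mn value of Grin1 lay above the top Mn value. The largest estimates among 15 ionotropic glutamate receptor genes were those of Grik3 (0.39 ± 0.25) and Grin2d (0.26 ± 0.18). With a median of -0.02, 7 of the 15 were higher and 8 lower. GABA-A receptor subunits had 4 higher and 8 lower of 12 (median -0.10), voltage-gated calcium channels 6 and 9 of 15 (median -0.01), protein kinase C and calmodulin genes 6 and 13 of 19 (median -0.04) and presynaptic release genes 10 and 6 of 16 (median 0.01), each with 0 at an unadjusted p under 0.05. Metabotropic glutamate receptors had 5 higher and 2 lower of 7 (median 0.03), led by Grm4 (0.64 ± 0.38).

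Activity-dependent and social-behaviour genes were close between the groups. Bdnf, the neurotrophin of synaptic plasticity, had 27.9 to 56.2 CPM in Pb+Mn and 35.1 to 81.0 CPM in Mn daughters (-0.20 ± 0.22), and the immediate early gene Fos had 7.64 to 37.1 CPM in Pb+Mn and 15.9 to 28.9 CPM in Mn daughters (0.04 ± 0.29). Of 22 genes of that list 9 were higher and 13 lower in daughters, with a median of -0.07 that changed sign, to 0.07, without Pb+Mn animal 3. In sons 20 of 22 were higher, with a median of 0.31, and the difference between the sexes was not tested for the list. The oxytocin receptor gene Oxtr had 6.60 to 8.46 CPM in Pb+Mn and 5.89 to 8.52 CPM in Mn daughters (0.04 ± 0.24), and the vasopressin receptor gene Avpr1b had 0.721 to 1.02 CPM in Pb+Mn and 0.335 to 2.11 CPM in Mn daughters (0.09 ± 0.45). Of 5 tested genes of oxytocin and vasopressin signalling, 3 were higher and 2 lower (median 0.04). Among 18 clock genes 5 were higher and 13 lower, and Arntl, which encodes the clock activator BMAL1, ranged from 16.8 to 29.6 CPM in Pb+Mn and from 14.0 to 20.8 CPM in Mn daughters (0.48 ± 0.16, edgeR unadjusted p = 0.00438). The output gene Dbp, which BMAL1 drives, stood on the other side at -0.48 ± 0.28, with 21.4 to 85.8 CPM in Pb+Mn and 33.3 to 96.2 CPM in Mn daughters. The hour of tissue collection was not used here, and its part in clock gene values was not tested. Glucocorticoid-responsive genes had 6 higher and 9 lower of 15 (median -0.06).

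Neuronal and astrocyte lists had medians within 0.2 log2 units of 0. Of 10 genes of CA1 pyramidal neurons, the output neurons of the hippocampus, 9 had lower estimates (median -0.19), led by Wfs1 with 115 to 218 CPM in Pb+Mn and 119 to 319 CPM in Mn daughters (-0.54 ± 0.35). Dentate granule cell genes were lower in 11 of 12 (median -0.09). Without Mn animals 1 and 5 the median was 0.10 for dentate granule cell genes and -0.06 for CA1 genes. Genes of CA2 and CA3 neurons were higher in 7 of 12 (median 0.05), interneuron genes in 6 of 16 (median -0.03), astrocyte genes in 1 of 12 (median -0.08) and endothelial and pericyte genes in 4 of 13 (median -0.09). Among 12 genes of newborn neurons and progenitors, 7 were higher (median 0.07). Top2a, a topoisomerase of dividing cells, had 1.95 to 3.10 CPM in Pb+Mn and 1.18 to 2.27 CPM in Mn daughters (0.66 ± 0.25, edgeR unadjusted p = 0.0125), while Igfbpl1, a marker of young neurons, had 2.74 to 5.57 CPM in Pb+Mn and 3.18 to 11.1 CPM in Mn daughters (-0.60 ± 0.39).

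**Figure D5:**
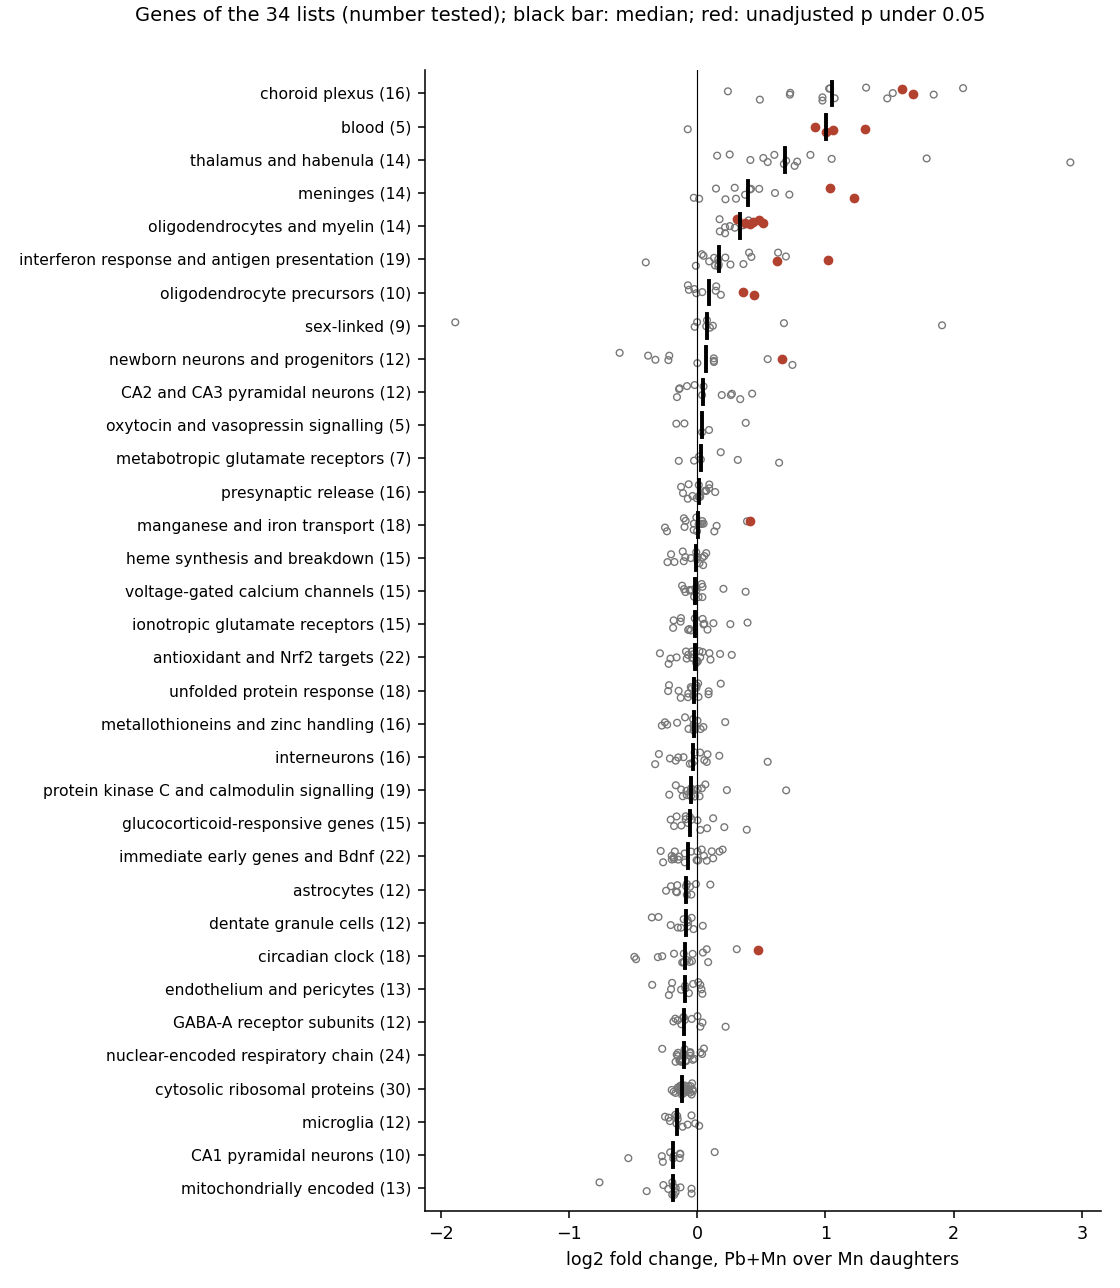
Log2 fold change of Pb+Mn over Mn daughters (horizontal axis) for the genes of 34 lists (rows, with the number of genes tested), where black bars mark list medians and red points an unadjusted p under 0.05. Choroid plexus, blood, thalamus and habenula, meninges and myelin have the highest medians (1.05, 1.00, 0.69, 0.39 and 0.33), and the far points of the sex-linked row are Y-linked genes at or near 0 in all 12 daughters.

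Sons offered the same addition of lead to manganese in other animals, 6 Pb+Mn against 6 Mn, with no library in common. There 0 of 16360 genes passed the adjusted threshold by edgeR, DESeq2 or limma voom, and 623 (3.81%) had an unadjusted p under 0.05 (659 by DESeq2, 634 by voom). Alas2 was higher in sons as well, with 4.27 to 17.8 CPM in Pb+Mn and 2.57 to 3.83 CPM in Mn sons, which did not overlap (log2 fold change 1.55 ± 0.37, edgeR unadjusted p = 0.00015, adjusted p = 0.954). The same held in direction for Hbb-bt (1.06 in sons), Hba-a1 (1.38) and Hbb-bs (1.00), for choroid plexus genes (16 of 16 higher, median 1.07) and for meninges genes (13 of 14 higher, median 0.53). An unadjusted edgeR p under 0.05 in sons was found for 0 of the choroid plexus genes and 4 of the meninges genes. The direction did not hold for myelin, of which 4 of 14 genes were higher in sons with a median of -0.06, nor for thalamus and habenula, with 7 of 14 higher and a median of -0.02.

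Across the 14381 genes with a mean of at least 1 CPM, log2 fold changes in daughters and sons had a Pearson r of 0.43 and a Spearman rho of 0.41, and 65.9% had the same sign, as a description across genes that share libraries and are not independent. Of the 302 such genes with an unadjusted p under 0.05 in daughters, 246 (81.5%) had the same sign in sons. Over all 14381 genes, an unadjusted edgeR p under 0.05 in sons came with the sign seen in daughters in 447 and the opposite sign in 96. An unadjusted p under 0.05 in both sexes was found for 28 genes, all with the same sign. They included Alas2, the haemoglobin genes, Scarb2 (0.18 in sons), Ube2l6 (0.50), Igf2 (1.21) and Slc13a4 (1.01), and 4 more, chosen after their values were seen, were the platelet glycoprotein gene Gp5 (0.61 in daughters, 0.97 in sons), the galactosidase-like gene Glb1l (1.07 and 1.19 in daughters and sons, with daughter values that include 20.4 CPM in Pb+Mn animal 6 against 3.07 to 5.97 CPM in the other Pb+Mn and 3.04 to 3.85 CPM in Mn animals), Fam234a (0.40 and 0.39) and the cofilin phosphatase gene Ssh1 (0.24 and 0.38). Whether sons and daughters came from the same litters is not stated.

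A test of whether the addition of lead differed between the sexes gave 0 genes at an adjusted p under 0.05 by edgeR, DESeq2 or limma voom, and 152 (0.929%) at an unadjusted p under 0.05 (155 by DESeq2 and 155 by voom). Cdk18, at 0.58 in daughters and -0.03 in sons, had an unadjusted interaction p of 0.0102 in edgeR. Trhr, the thyrotropin-releasing hormone receptor gene, came first among the named genes, at 0.50 ± 0.37 in daughters and -1.07 in sons. Its unadjusted interaction p was 0.00498 in edgeR, and the estimate in daughters was 0.32 without Mn animal 1. Tes (0.44 and -0.35 in daughters and sons), Gbp4 (1.25 and -1.60), and on the other side the phospholipid transfer gene Pitpnm2 (-0.12 and 0.31), the dentate gene Pdzd2 (-0.30 and 0.30) and the dioxygenase gene Kdm8 (-0.15 and 0.50) followed, all with an adjusted p of 1. None of these contrasts between the sexes passed the adjusted threshold.

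Lead without manganese was available in daughters as Pb against control, again with no library shared. That comparison had 0 adjusted calls by edgeR, DESeq2 or limma voom and 368 genes (2.25%) at an unadjusted p under 0.05 (378 by DESeq2, 303 by voom). Over the 14381 genes its log2 fold changes and those of Pb+Mn over Mn had a Pearson r of -0.30 and a Spearman rho of -0.28, with 40.1% of the same sign, again as a description across genes. Of the 302 genes with an unadjusted p under 0.05 for Pb+Mn over Mn, 112 (37.1%) had the same sign for Pb over control. Log2 fold changes were above 0 for 49.5% of genes for Pb+Mn over Mn, 49.4% in sons and 52.8% for Pb over control in daughters. Of the 34 lists, 22 had medians of opposite sign in these comparisons and 12 of the same sign, among them blood (1.00 for Pb+Mn over Mn and 0.31 for Pb over control), microglia (-0.15 and -0.02) and mitochondrially encoded genes (-0.19 and -0.04). Among those of opposite sign, thalamus and habenula genes had medians of 0.69 for Pb+Mn over Mn and -0.75 for Pb over control, meninges genes 0.39 and -0.39, interferon genes 0.17 and -0.42, ribosomal protein genes -0.12 and 0.32, and CA1 genes -0.19 and 0.41. Control daughter 5 stood apart for interferon genes, at 1.61 on the centred log2 scale against -0.35 to 0.22 in the other 5 controls, and was the highest control for thalamus and habenula at 2.41. Myelin genes had a median of -0.04 for Pb over control, and choroid plexus genes -0.10. The slope of expression on transcript length was lowest in Pb daughter 2 (-0.357) and control daughter 1 (-0.279) among the Pb and control daughters. Its part in the ribosomal protein median for Pb over control was not tested.

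The difference between these effects of lead, with and without manganese, had 0 genes at an adjusted p under 0.05 (smallest 0.994 by edgeR, 0 calls by DESeq2 and limma voom) and 519 (3.17%) at an unadjusted p under 0.05 (558 by DESeq2, 449 by voom). The hyaluronan receptor gene Cd44 came first among the named genes, at 0.37 ± 0.19 for Pb+Mn over Mn and -0.72 for Pb over control. Its unadjusted interaction p was 0.000264 in edgeR. Without Pb+Mn animal 1 the estimate for Pb+Mn over Mn was 0.22. Arhgef37 stood at 0.87 for Pb+Mn over Mn and -0.83 for Pb over control, and the adenosine deaminase-like gene Adal at 0.33 and -0.47. In the opposite direction were the transcriptional repressor gene Hic2 (-0.19 and 0.37), the protease gene Tasp1 (-0.28 and 0.30) and the semaphorin receptor gene Plxnd1 (-0.24 and 0.41).

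A pair of genes had large differences within the groups. Lefty1, an antagonist of Nodal signalling, was at 11.9 CPM in Pb+Mn animal 6 and at most 0.0974 CPM in the other 5, and at 6.14 and 6.98 CPM in Mn animals 3 and 5 with 0 CPM in the other 4. Control daughters did not exceed 0.0404 CPM. The gene is 1 of the 10 in the CA1 list. Cwc22, a splicing factor gene that lies in many near-copies in mice, was at 36.3 CPM in Pb+Mn animal 6 and 12.1 to 16.1 CPM in the other 5, against 13.0 to 46.8 CPM in Mn and 29.9 to 107 CPM in control daughters (log2 fold change -0.80 ± 0.54 for Pb+Mn over Mn). The sources used here do not say how reads were assigned among its copies, and its level is uncertain.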

How the data were processed

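The authors deposited 1 table of whole-number read counts per gene for 48 libraries, with no normalization. Per the labels' protocols, RNA came from Qiagen AllPrep columns and was read in pairs on a NovaSeq after stranded mRNA library preparation (Illumina). The submitters' processing notes name build GRCm39, STAR 2.7.10b, featureCounts 2.0.6 and, beside them, Trim Galore 0.6.9, limma, edgeR and R 4.4.2, with no order or role. The sources used here do not say how featureCounts treated strand, shared reads or overlaps. Genes with near copies, overlaps or antisense partners are therefore uncertain. Of 57126 identifiers, 51884 matched a symbol in GENCODE M21 (99.52% of counts), which is on another build, so no coordinates are given.

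All 48 libraries entered 1 edgeR 4.0.16 fit in R 4.3.3 (filterByExpr, TMM, quasi-likelihood F test, two-sided, 1 term per group), with Benjamini-Hochberg adjustment over 16360 genes at 0.05. SE was taken as the absolute log2 fold change over the square root of F. CPM was per TMM-adjusted library size, with 2 as prior count on the log2 scale. Total counts per library ran from 6.27 to 27.6 M reads over the series. Between replicates, chi-square per degree of freedom was at least 9.3 over genes of 50 or more counts, so none was counted as a repeat. Libraries were compared in total, top-gene share, mitochondrial share and length trend (11765 genes; 98.4% of tested genes had a length) by exact permutation in scipy 1.17.1. The test was also run on counts simulated gene by gene with known changes. Genes did not vary together in these counts, so the run says nothing of such variation. Alternatives were DESeq2 1.42.0, limma 3.58.1 voom with and without library weights, other scalings and filters, only the 12 libraries, a replicate block, the length trend as a covariate, a threshold of 0.1 and leaving out each animal.

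The named genes, taken from those whose log2 CPM averaged 0 or more and leaving out unnamed gene models, are the 12 higher and 12 lower of smallest p, the 4 of largest difference in each direction among genes whose groups do not overlap and among all, 20 fixed genes, the 2 of smallest p per list, and the 3 of smallest p in each direction in each interaction. The genes, the 34 lists (513 entries, 2 of them unmatched: Ddit3 and Atp5pb) and the comparison were chosen with earlier results of these data known. Lists are described by counts and medians and were not tested. Some genes that this rule names are not reported here.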

Additional observations from a re-analysis of the deposited data

Results flagged for a closer look

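In groups of 6, the highest or lowest animal stood apart from the rest, by Dixon's criterion, in 19 of 260 groups of values examined. The criterion flags about 1 in 20 for independent, normally distributed values. That rate may not hold for CPM of genes picked partly by their values. Of the 19, 5 were in Pb+Mn animal 6. In that animal they were Lefty1 at 11.9 CPM, Cwc22 at 36.3 CPM, Gbp4 at 20.3 CPM (0.656 to 1.43 CPM in the other Pb+Mn animals), the dentate gene Pdzd2 at 71.9 CPM (89.2 to 99.8 CPM in the others) and the CA2 gene Cacng5 at 12.5 CPM (23.3 to 29.5 CPM).

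Pb+Mn animal 1 stood apart in Col8a1 at 25.7 CPM (3.65 to 5.80 CPM in the others), Igf2 at 12.3 CPM (2.5 to 3.65 CPM) and Hmox1 at 4.00 CPM (6.19 to 7.98 CPM). Pb+Mn animal 3 did so in Mt1 at 321 CPM, Fos at 7.64 CPM (21.4 to 37.1 CPM) and Nqo1 at 5.85 CPM (4.39 to 4.86 CPM), Pb+Mn animal 4 in Sox10 at 73.6 CPM (45.6 to 54.3 CPM), and Pb+Mn animal 5 in Mcc at 10.2 CPM (17.6 to 23.0 CPM) and Spock1 at 347 CPM (232 to 258 CPM).

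In the Mn group, animal 5 stood apart in Tmem72 at 0.181 CPM (2.75 to 8.54 CPM in the other Mn animals), mt-Te at 16.9 CPM (2.48 to 3.35 CPM) and Mt3 at 264 CPM (333 to 371 CPM). Animal 2 did so in Idnk at 19.3 CPM (13.7 to 14.6 CPM) and animal 4 in Grin2d at 22.4 CPM (12.5 to 14.5 CPM).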

How the results depend on the processing

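Under each alternative run, 0 genes passed the adjusted threshold for Pb+Mn against Mn in daughters, for both interactions and for Pb against control. In sons 3 passed with the replicate block (Hbb-bt, Hbb-bs and Hba-a1, named after their values were seen); same-numbered sons had correlations of -0.07 to 0.285, and 4 of 6 matched their own number best, a hint from the data and not the design. The 390 genes at an unadjusted p under 0.05 in daughters became 1355 with no filter on low counts (more genes tested), 724 with only the 12 libraries and 1001 with library weights in voom; the cause of the last 2 was not tested. Leaving out each animal gave 309 to 539. Same-numbered Pb+Mn and Mn daughters did not deviate together (correlations of -0.244 to -0.037). Expression values cannot settle whether the numbers pair animals, and the labels do not say. With the numbers as a replicate block, 549 genes had an unadjusted p under 0.05 in edgeR. The 24 genes of smallest p kept their sign in all 23 alternatives, which their choice by p on these same libraries makes likely. Of the 106 other named genes, some with estimates near 0, 17 did not keep it. The smallest adjusted p over these genes and alternatives was 0.65. Of the 34 list medians, 14 changed sign when 1 animal was left out, all of them within 0.1 log2 units of 0. With 6 animals a group, the 95% interval of a typical gene reached 0.32 log2 units to either side.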
